A study of Zea mays with 12 samples.

Results

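Leaves of the maize mutant stock zmcryq were compared after 1 h of blue light and after continued darkness, to describe the response to blue light that remains in this stock. The comparison used 6 of the 12 libraries of the series, 3 zmcryq blue libraries and 3 zmcryq dark libraries, taken by their labels. The other 6 libraries, 3 B73 blue and 3 B73 dark, shared in the estimate of the spread and serve for the side-by-side values. Both genotypes were sampled as leaves of 7-day-old seedlings raised in long-day white light and placed in darkness for 48 h before the treatment, and B73 is the inbred line that the labels call wild type. The labels do not name the genes that are disrupted in zmcryq, the background the mutations were made in, or whether it is 1 line, and they are silent on whether each library is a plant of its own. P-values thus reflect variation among libraries that may be partly or wholly technical. In bulk leaf RNA, fewer cells of a type and less RNA per cell cannot be told apart.

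Cryptochromes are flavin-binding receptors of blue light in plants. After absorbing light they bind and hold back the COP1 and SPA proteins, which otherwise mark light-signalling transcription factors such as HY5 for degradation, and they act on PIF transcription factors. Leaves also sense blue light through phototropins, which direct chloroplast movement, stomatal opening and bending, through the ZEITLUPE family, and through phytochromes, whose main absorption is red and far-red but reaches into the blue. Chlorophyll absorbs blue light as well, so photosynthesis starts when darkened leaves are lit.

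Genes carry IDs of the form Zm00001eb followed by digits, and the name table at hand holds 0 of the 44303 IDs. Genes are given by ID with no role, and the cryptochrome genes, the pathway lists and leaf markers were not analysed here. The unit was taken to be FPKM, in which fragment numbers are divided by transcript length and by the library's mapped fragments; no header states it. A library's FPKM summed to between 588717 and 814802 over all genes. Each library was divided by its median-ratio factor before testing, and factors ran from 0.868 to 1.64 in zmcryq blue, 0.507 to 1.08 in zmcryq dark, 0.567 to 1.49 in B73 blue and 0.993 to 1.16 in B73 dark. Within groups the median SD of a gene was 0.116 on the log2 scale in zmcryq blue and 0.125 in zmcryq dark after this scaling, against 0.431 and 0.464 before it. It was larger in B73, at 0.153 in B73 blue and 0.201 in B73 dark after scaling, against 0.691 and 0.214 before it. The tests share 1 estimate of spread over these unequal groups.

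One hour of blue light was followed by called changes in many of the genes tested in zmcryq leaves, a share that depended on threshold and scaling. Of 21472 genes tested, those at 1 FPKM or more in at least 3 of the 12 libraries, 12058 were called (56.2%): 6087 rose (28.3%) and 5971 fell (27.8%) in zmcryq blue relative to zmcryq dark. A call is a limma adjusted p under 0.05 in a fit to log2(scaled FPKM + 1) across all tested genes. With a minimum of 2-fold, 1809 genes rose (8.42%) and 2186 fell (10.2%), together 18.6% of those tested. Dividing by median ratios sets the middle of all changes near 0, at 0.01 on the log2 scale here, so similar numbers in both directions follow in part from the scaling.

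The counts turned on whether libraries were scaled at all. With the values as deposited, 5576 genes rose and 912 fell, 85.9% of calls being rises. The median change of all genes then lay at 0.56 on the log2 scale, and the spread within groups was larger. In B73, where the unscaled median was 0.02, calls were fewer without scaling too, at 2152 rises and 1523 falls. What made the calls fewer was not tested. Of the 1809 genes that rose 2-fold or more, 1802 (99.6%) were called in the same direction under each of 3 other scalings: quantile normalization, median ratios within zmcryq alone and upper-quartile factors. Of the 2186 that fell 2-fold or more, 2143 (98%) were. With the unscaled values added as another treatment, 1796 of the rises (99.3%) and 882 of the falls (40.3%) were called each time. Leaving out each of the 6 zmcryq libraries in turn kept 1753 of the 1809 rises (96.9%) and 2122 of the 2186 falls (97.1%) in the same direction every time. Calls of any size were kept less often. Of all 6087 rises, 5492 (90.2%) were kept under the 3 other scalings and 4807 (79%) without each zmcryq library in turn. Of all 5971 falls, 4670 (78.2%) and 4902 (82.1%) were. At an adjusted p under 0.01, 4626 genes rose and 4754 fell.

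In zmcryq, 7535 of the tested genes (35.1%) had all 3 blue libraries above all 3 dark ones after scaling, and 7201 (33.5%) had them all below, beside the 56.2% called. As deposited, these numbers were 7192 (33.5%) and 1247 (5.81%). Of the 6087 genes that rose, 6005 showed this separation after scaling and 5632 as deposited. Of the 5971 that fell, 5886 showed it after scaling and 1226 as deposited.

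Most changes were modest. Of the rises, 1975 (32.4%) were under 1.5-fold and 2303 (37.8%) were from 1.5 to under 2-fold. Another 1546 (25.4%) were from 2 to under 4-fold, 202 (3.32%) from 4 to under 8-fold and 61 (1%) of 8-fold or more. Of the falls, 391 (6.55%) were from 4 to under 8-fold and 147 (2.46%) of 8-fold or more. The added 1 shrinks the folds of weakly expressed genes.

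**Figure D1:**
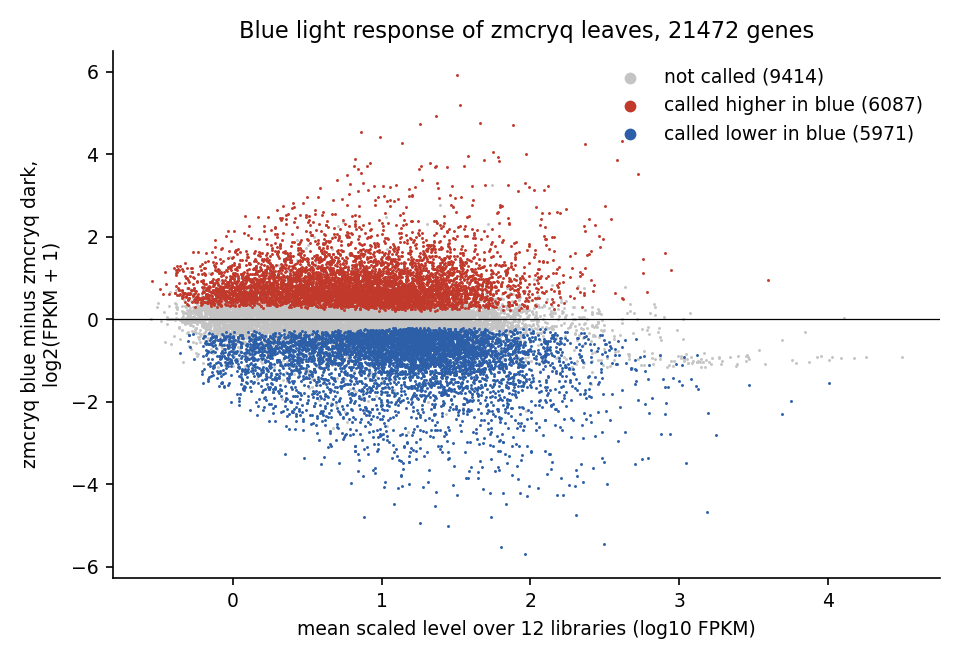
Each point is 1 of 21472 genes: the x axis is its mean scaled level over the 12 libraries (log10 FPKM) and the y axis its log2(FPKM + 1) change, zmcryq blue minus zmcryq dark. The 6087 genes called higher (red) and the 5971 called lower (blue) surround the 9414 not called (grey), and a grey band of abundant genes lies near a change of -1.

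A call that was missed does not show that a gene was steady. Among the 9414 genes not called, 7846 (83.3%) had a 95% interval of the change that lay within 2-fold in both directions, and 5199 (55.2%) one that lay within 1.5-fold. The median SE of a change was 0.15 on the log2 scale, and 95% of the called genes changed by more than 0.34.

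The 2 genes that rose and the 2 that fell with the largest moderated statistics are given by library, as extremes of the response. The median absolute log2 change of all called genes was 0.77. A large statistic favours a large change and a small spread within groups, so neither is a finding of its own in these genes. Only genes whose scaled zmcryq blue and dark libraries do not overlap could be chosen, so that separation is no finding of its own. Zm00001eb213310 had 439, 324 and 703 FPKM in the zmcryq blue libraries, against 22.3, 48.1 and 28.7 FPKM in zmcryq dark. It was listed at 0 in all 6 B73 libraries, blue and dark. The zmcryq groups did not overlap, and the log2 change was 3.13 ± 0.09 (SE; limma adjusted p 7.3e-09). In that fit 6 of the 12 libraries are at 0 and add no spread; with the 6 zmcryq libraries alone the SE was 0.09 too (limma adjusted p 8e-07).

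Zm00001eb168100 was at 102, 64.4 and 133 FPKM in zmcryq blue and at 4.24, 7.2 and 5.92 FPKM in zmcryq dark, with no overlap. Scaled levels averaged 78.7 ± 3.89 FPKM in zmcryq blue and 7.73 ± 0.9 FPKM in zmcryq dark (SD, n = 3 each), a log2 change of 3.2 ± 0.1 (SE; limma adjusted p 1.3e-08). In B73 this gene averaged 225 ± 6.81 scaled FPKM in blue and 77.3 ± 7.83 in the dark (SD, n = 3 each), a change of 1.54 ± 0.1 (limma adjusted p 2.6e-07). The rise was thus larger in zmcryq by 1.66 ± 0.15 (SE; limma adjusted p 1.2e-05), and after it the zmcryq blue libraries, at 74.2 to 81 scaled FPKM, lay within the range of the B73 dark libraries, 71.8 to 86.3.

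Zm00001eb121590 was at 8.28, 5.52 and 10.6 FPKM in zmcryq blue and at 19.6, 41.3 and 27.7 FPKM in zmcryq dark. After scaling the libraries of each group were close together, at 6.44 ± 0.1 FPKM in zmcryq blue and 38.3 ± 0.32 FPKM in zmcryq dark (SD, n = 3 each). The log2 change was -2.4 ± 0.07 in zmcryq (SE; limma adjusted p 7.3e-09) and -1.44 ± 0.07 in B73 (limma adjusted p 1.5e-08). The difference of these falls, -0.96 ± 0.1 (limma adjusted p 3.2e-05), was not called without scaling, where it was -0.29 (limma adjusted p 0.8).

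Zm00001eb376650 was at 26.9, 20.1 and 34.7 FPKM in zmcryq blue and at 192, 391 and 233 FPKM in zmcryq dark, the deepest fall of these 4 genes. Scaled levels were 21.8 ± 1.12 FPKM in zmcryq blue and 354 ± 30.1 FPKM in zmcryq dark (SD, n = 3 each), a log2 change of -3.95 ± 0.12 (SE; limma adjusted p 7.3e-09). In B73 scaled levels were 46.9 ± 4.38 FPKM in blue and 483 ± 58.7 FPKM in the dark (SD, n = 3 each), a change of -3.34 ± 0.12 (limma adjusted p 1.9e-09). The difference between the genotypes, -0.62 ± 0.16 (limma adjusted p 0.016), lost its call with quantile normalization (-0.36, limma adjusted p 0.16) and turned to 0.09 without scaling (limma adjusted p 0.95).

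The direction of the response shifted with the level of the gene. Genes were sorted by their mean scaled FPKM over all 12 libraries, a level per length of transcript. Of 1556 genes averaging under 1 FPKM, 27.2% rose and 11.2% fell in zmcryq blue. Of 8026 genes from 5 to under 20 FPKM, 30.1% rose and 29% fell, close to the 28.3% and 27.8% of all tested genes. Of 4766 genes from 20 to under 100 FPKM, 23.6% rose and 41.4% fell, and of 767 genes at 100 FPKM or more, 15.5% rose and 46.2% fell.

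**Figure D2:**
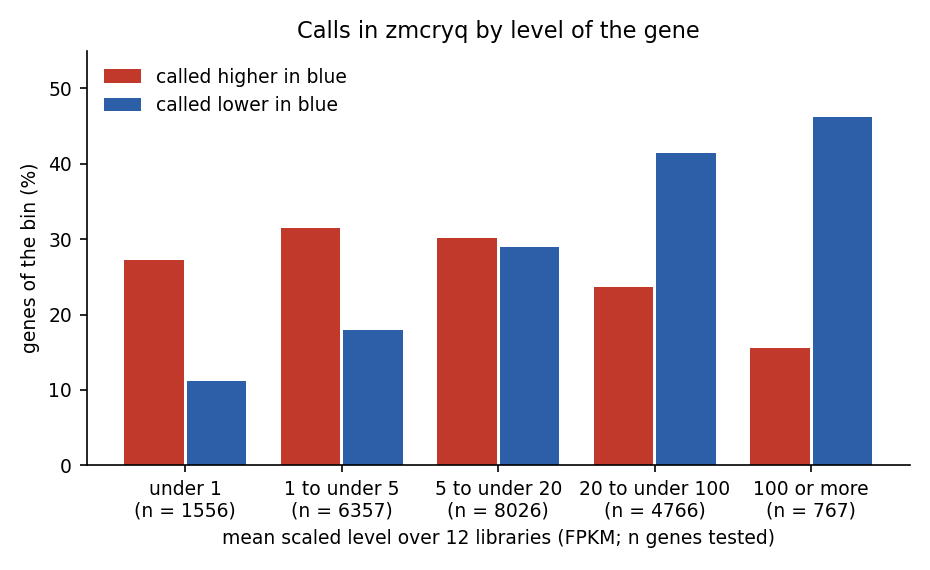
Bars give the percentage of genes called higher (red) and lower (blue) in zmcryq blue relative to zmcryq dark, in bins of mean scaled level over the 12 libraries (FPKM). The share lower climbs from 11.2% of the 1556 lowest genes to 46.2% of the 767 highest, while the share higher is at most 31.5% and is 15.5% in the highest bin.

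The median log2 change of the genes at 100 FPKM or more lay 0.82 below that of genes under 5 FPKM. This gap of -0.82 was -0.46 without zmcryq dark replicate 1 and zmcryq blue replicate 3 together, the zmcryq libraries of lowest and highest factor, and -0.5 with the values as deposited, where 10.3% of the genes at 100 FPKM or more fell and 4.44% of those under 5 FPKM. Quantile normalization, which gives every library the same distribution of values, left a gap of -0.04, with 27% of the genes at 100 FPKM or more falling and 21.1% of those under 5 FPKM.

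The most abundant genes stood apart in how they varied between libraries of 1 group. A bin of 72 genes averaging 1000 FPKM or more, split off after the values were seen, took 33.4%, 46.8% and 22.6% of the total FPKM in zmcryq blue replicates 1, 2 and 3, and 55.7%, 29.6% and 45.3% in zmcryq dark replicates 1, 2 and 3. The 2 groups overlapped. In this bin of 72 genes 1 rose, 15 fell and 56 were not called, while 28.3% of all tested genes rose and 27.8% fell. The 56 had a median log2 change of -0.96 with a median SE of 0.94, against a median SE of 0.15 over all tested genes. The share of these genes was highest in the library of lowest factor and lowest in that of highest factor in both zmcryq groups, and the part this plays in the factors was not tested.

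Genes that rose 2-fold or more in zmcryq started from low levels. Their median scaled level was 10.1 FPKM in zmcryq blue and 2.9 FPKM in zmcryq dark, and 9.89 FPKM in B73 blue and 4.09 FPKM in B73 dark. Genes that fell 2-fold or more had a median of 7.61 FPKM in zmcryq blue and 27 FPKM in zmcryq dark, and 8.73 FPKM in B73 blue and 22 FPKM in B73 dark. The medians of all tested genes were 7.5 FPKM in zmcryq blue and 7.41 FPKM in zmcryq dark. The zmcryq medians of both sets are a description, since these values chose the genes.

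As deposited, the 1809 rising genes took 8.31%, 6.03% and 10.1% of the total FPKM in zmcryq blue and 1.12%, 2.13% and 1.65% in zmcryq dark. The 2186 falling genes took 9.77%, 7.85% and 11.3% in zmcryq blue and 18%, 29.7% and 21.7% in zmcryq dark. The libraries did not overlap in either share, which again describes genes picked on these values.

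Switching on or off was rare. Only 18 genes in the table were listed at 0 in all 3 zmcryq dark libraries and at 1 FPKM or more in all 3 zmcryq blue ones. Of these, 16 were called, beside 56.2% of all tested genes, but choosing them on the same values nearly fixes that count. The means of the 18 genes in zmcryq blue had a median of 3.13 FPKM and a highest value of 27.6 FPKM. In B73 dark 9 of the 18 were also listed at 0 in every library, and 1 of the 18 showed the same switch in B73. In the other direction 9 genes were at 1 FPKM or more in all 3 zmcryq dark libraries and at 0 in all 3 zmcryq blue ones. Only 3 of these 9 were at 1 FPKM or more in all 3 B73 dark libraries and could switch off likewise in B73, and 0 did. An exact 0 in a table without counts can be a failed estimate, so these genes are only said to be listed at 0.

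Some genes entered the test only through the group in which they were high, and had to differ. In all, 138 genes reached 1 FPKM in the 3 zmcryq blue libraries and in no other library, and 126 of these were called higher. A further 15 passed only through zmcryq dark, and all 15 were called lower. Both sets are a small part of the 6087 rises and 5971 falls.

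Much of the zmcryq response was also seen in B73, whose 6 libraries are separate from those of zmcryq. The 2 tests are not independent, since they share 1 estimate of each gene's spread: a gene of low spread is more easily called in both. Fits to the 6 libraries of each genotype alone gave 4927 rises and 4419 falls in B73 and 6740 and 6627 in zmcryq. In B73 blue light moved 52.1% of the tested genes: 26.9% rose and 25.2% fell, a balance that the centring sets in part and that turned to 5311 rises and 5745 falls with quantile normalization. Of the 1809 genes that rose 2-fold or more in zmcryq, 1337 (73.9%) rose in B73, 21 (1.16%) fell and 451 (24.9%) were not called. Of the 2186 that fell 2-fold or more, 1732 (79.2%) fell in B73, 60 (2.74%) rose and 394 (18%) were not called. The few opposite genes depended on the settings: the 21 became 34 with quantile normalization, 46 with a pseudocount of 0.1, 7 with one of 5 and 50 with array weights. The 60 became 5 without scaling, 105 with a pseudocount of 0.1 and 24 with one of 5. Without scaling, 25% of the 4846 genes that rose 2-fold or more in zmcryq were called higher in B73, and 73.6% of those that fell were called lower there. Among all 21472 genes tested, B73 calls without scaling were fewer than with it, at 2152 higher and 1523 lower.

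The share also called in B73 grew with the size of the change in zmcryq. It was 47.7% for rises under 1.5-fold, 59.2% from 1.5 to under 2-fold, 73.1% from 2 to under 4-fold, 75.2% from 4 to under 8-fold and 90.2% at 8-fold or more. For falls it was 51.6%, 60.8%, 76.7%, 85.7% and 90.5% in the same order. None of the 61 rises and none of the 147 falls of 8-fold or more in zmcryq was called in the opposite direction in B73.

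**Figure D3:**
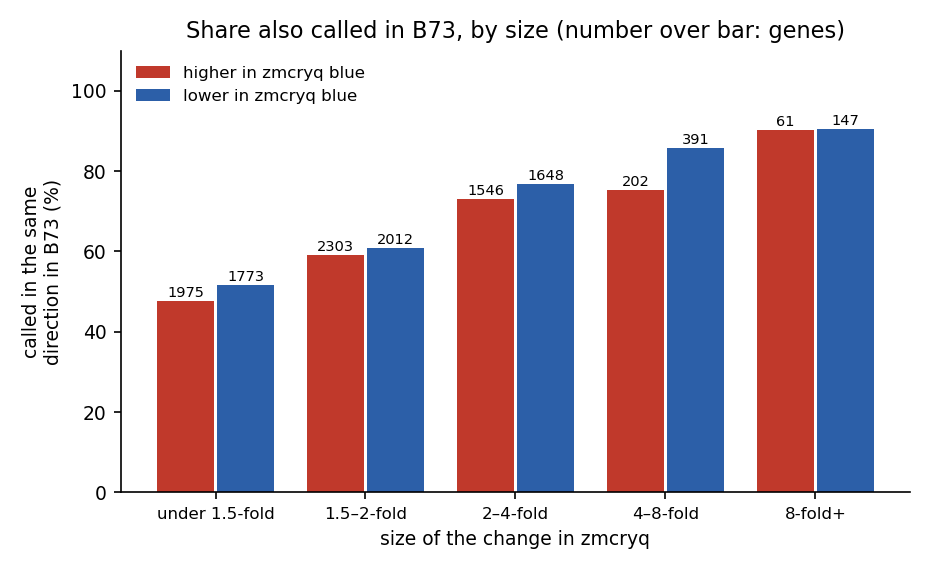
Bars give the percentage of genes called in zmcryq that were called in the same direction in B73, by the size of the zmcryq change, for rises (red) and falls (blue); the number of genes stands over each bar. The share climbs from 47.7% to 90.2% for rises and from 51.6% to 90.5% for falls.

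Genes picked for their size in zmcryq had smaller changes in B73, a choice that favours zmcryq. The 1809 rising genes had a median log2 change of 1.32 in zmcryq and 0.89 in B73, and the 2186 falling genes one of -1.49 in zmcryq and -1.07 in B73. Across the 12058 genes called in zmcryq, the 2 responses had the same sign in 10351 (85.8%), with a Pearson correlation across genes of 0.75 (Spearman 0.78). Over all 21472 genes these were 74.7% and 0.65 (Spearman 0.66), and there the SD of the log2 change across genes was 0.89 in zmcryq and 0.95 in B73. Genes are not independent replicates, and both genotypes were scaled together.

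The difference of the responses was itself called for 25.8% of the tested genes, more positive in zmcryq for 10.8% and less positive for 15.0%. The more positive ones made up 41.9% of these calls, against 52.9% with quantile normalization, 54.8% with upper-quartile factors and 59.5% without scaling. Of the 6087 genes that rose in zmcryq, the test called a more positive response in zmcryq than in B73 for 1460 (24%) and a less positive one for 640 (10.5%), and it made no call for 3987 (65.5%). Of the 5971 that fell, it called a more negative response in zmcryq for 1567 (26.2%), a less negative one for 300 (5.02%) and made no call for 4104 (68.7%). The zmcryq libraries enter both tests, so these counts favour larger responses in zmcryq. Of the rises in zmcryq, 924 (15.2%) were not called in B73 and had a called difference, as did 713 (11.9%) of the falls.

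**Figure D4:**
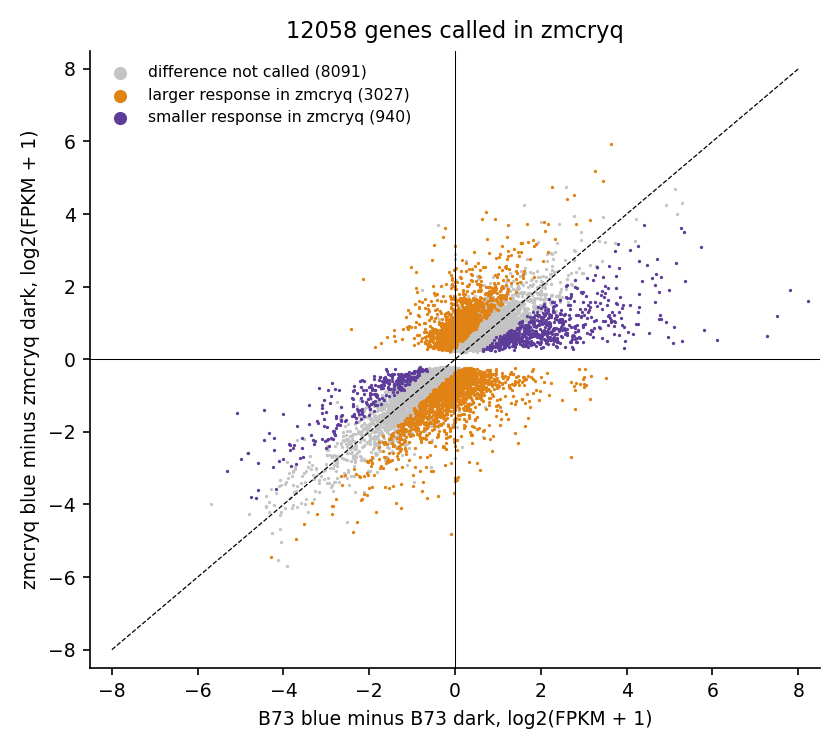
Each point is 1 of the 12058 genes called in zmcryq, with its log2(FPKM + 1) change in zmcryq, blue minus dark, on the y axis and in B73 on the x axis; the dashed line marks equal changes. Orange genes had a called difference in the direction of their zmcryq change (the legend's larger response, genes of opposite sign in B73 included), purple genes one against it, and grey genes none; 85.8% of the points have the same sign in both genotypes.

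In 167 genes (2.74% of the rises) blue light raised the gene in zmcryq and lowered it in B73, and in 340 (5.69% of the falls) it lowered the gene in zmcryq and raised it in B73. For such genes a called difference is nearly fixed by the choice of opposite calls. The 4 genes shown next were chosen after their values were seen, as those with the largest statistics for a difference in each direction. They had to be called in zmcryq and in the difference, to change 2-fold or more in zmcryq and to have no group at 0. Their higher zmcryq group had to average 10 or more after scaling, and their scaled zmcryq blue and dark libraries could not overlap. That separation is no finding of its own.

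Zm00001eb352260 was at 28.3, 19.8 and 41 FPKM in zmcryq blue and at 4.08, 8.28 and 5.88 FPKM in zmcryq dark. In B73 it was at 7.56, 3.53 and 9.98 FPKM in blue and at 12.6, 12.2 and 12.3 FPKM in the dark. It rose in zmcryq, with a log2 change of 1.45 ± 0.1 (SE; limma adjusted p 3.4e-07), and fell in B73, with -0.84 ± 0.1 (limma adjusted p 1.9e-05). The B73 groups did not overlap, while for the zmcryq groups separation after scaling was a condition of the choice.

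Zm00001eb116010 was at 94.6, 50.3 and 114 FPKM in zmcryq blue, against 2.55, 6.68 and 3.92 FPKM in zmcryq dark. B73 libraries were low in blue light and in the dark, at 0.54, 0.51 and 1.14 FPKM in blue and 1.58, 0.93 and 0.81 FPKM in the dark. The log2 change was 3.38 ± 0.16 in zmcryq (SE; limma adjusted p 3.2e-08) and -0.27 ± 0.16 in B73, which was not called (limma adjusted p 0.17). The gene was thus higher in every zmcryq library than in any B73 library before blue light too.

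Zm00001eb287830 was at 19.5, 15.1 and 28.9 FPKM in zmcryq blue and at 60.1, 142 and 98 FPKM in zmcryq dark, a log2 change of -2.86 ± 0.1 (SE; limma adjusted p 1.3e-08). In B73 it was at 135, 50.1 and 154 FPKM in blue and at 85.4, 68.3 and 60.7 FPKM in the dark. Those groups overlapped as deposited and separated after scaling, at 95.2 ± 7.9 scaled FPKM in B73 blue and 66.7 ± 6.56 in B73 dark (SD, n = 3 each; log2 change 0.51 ± 0.1, limma adjusted p 0.0016).

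Zm00001eb028500 was at 5.81, 4.32 and 7.19 FPKM in zmcryq blue and at 6.54, 13.8 and 8.68 FPKM in zmcryq dark, groups that overlapped as deposited. Scaled levels were 4.65 ± 0.3 FPKM in zmcryq blue and 12.5 ± 0.54 FPKM in zmcryq dark (SD, n = 3 each), a log2 change of -1.26 ± 0.08 (SE; limma adjusted p 1.8e-07). Without scaling this change was -0.62 and not called (limma adjusted p 0.29), nor was the difference between the genotypes (limma adjusted p 0.13). In B73 scaled levels were 16 ± 0.17 FPKM in blue and 7.59 ± 0.08 FPKM in the dark, a rise of 0.99 ± 0.08 (limma adjusted p 8e-07).

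**Figure D5:**
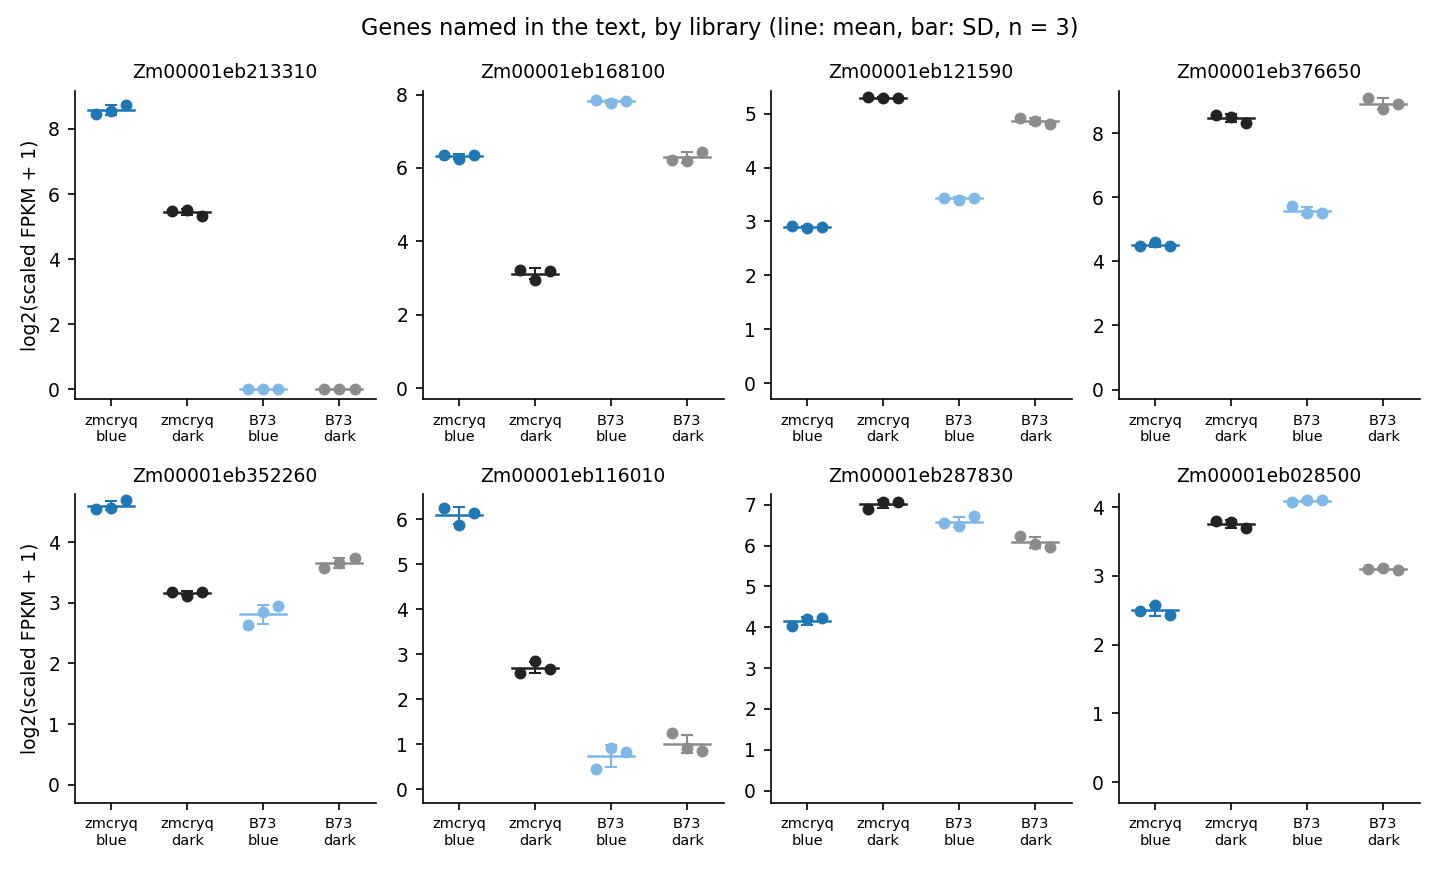
Each panel shows 1 named gene as log2(scaled FPKM + 1) in zmcryq blue, zmcryq dark, B73 blue and B73 dark; points are libraries, lines are means and bars are SDs (n = 3). In all 8 panels the zmcryq blue libraries lie wholly above or wholly below the zmcryq dark ones, which was a condition for choosing these genes. Zm00001eb213310 is at 0 in every B73 library.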

How the data were processed

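The table that the authors deposited has 44303 gene IDs, 12 single-library columns and 4 group-mean columns left unused; columns headed cryq were matched to titles reading zmcryq. The deposited values were read as FPKM because they carry decimals, sum to different totals and the submitters' processing notes name Cufflinks; TPM over a larger gene set cannot be told apart from it. The authors also used, per the submitters' processing notes and with no role given, HISAT2 2.2.1.0, Trimmomatic 0.36, DESeq 1.18.0, Bowtie2 and TopHat. The kit was Illumina TruSeq, per the labels' protocols. No source used here gives the build, the annotation, the strand setting or how shared fragments were counted; overlapping genes and near-identical copies are therefore uncertain.

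Low values did not give the depth: of 66 to 89 sparse genes compared in the other zmcryq libraries with zmcryq dark replicate 2, 9 to 21 fell on 1 common ratio. Depth is unknown, so no counting interval is given.

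The 21472 genes tested reached 1 FPKM in 3 or more libraries. Factors were median ratios to the geometric mean over 19555 genes above 0 throughout. Log2(scaled FPKM + 1) was fitted with limma 3.58.1 in R 4.3.3 with 1 mean per group, trended and robust moderation (8 residual and a median of 3.22 prior degrees of freedom) and Benjamini-Hochberg adjustment over all tested genes, 2-sided. The script was tested on simulated data in which few genes changed, as many up as down. That setting differs from these data, so it does not test the scaling used here. Named genes were the 2 with the largest positive and the 2 with the largest negative statistic among called genes whose groups do not overlap and whose higher group averages 10 or more; 4 others were chosen from the difference of responses. The comparison, the lists and these rules were chosen with earlier results of these data known. Alternatives covered scaling, pseudocount, filter, samples, replicate number, moderation, weights, threshold and each library left out.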

Additional observations from a re-analysis of the deposited data

Results flagged for a closer look

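The blue response differed between zmcryq and B73, by the limma test of the difference itself, for many genes: it was more positive in zmcryq for 2322 genes and less positive for 3221. The balance of these depended on the scaling, with 605 and 412 as deposited, 3207 and 2856 after quantile normalization and 3209 and 2652 with upper-quartile factors.

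On the log2(FPKM + 1) scale the difference of responses, zmcryq minus B73, was 3.13 for Zm00001eb213310, where it only repeats the zmcryq change because the gene is listed at 0 throughout B73, and 1.66 for Zm00001eb168100. It was -0.96 for Zm00001eb121590 and -0.62 for Zm00001eb376650. For the genes chosen by this test it was 2.29 (Zm00001eb352260), 3.65 (Zm00001eb116010), -3.37 (Zm00001eb287830) and -2.25 (Zm00001eb028500), values that describe the choice and are no evidence of their own.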

How the results depend on the processing

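The zmcryq counts of 6087 rises and 5971 falls stayed within 1.5 times under quantile normalization, upper-quartile factors (7317 and 5027; added after seeing the data), other pseudocounts and filters, and without each library in turn (5353 to 6623 and 5299 to 6590). They were 4646 and 4754 without zmcryq dark replicate 1 and zmcryq blue replicate 3 together, also added then. Falls were 912 without scaling. A minimum of 2-fold left 1809 and 2186. That minimum rests on the pseudocount: 2942 and 2682 with 0.1, 646 and 1310 with 5. Without scaling, 4846 rose and 795 fell 2-fold or more. For the difference of responses, 2322 and 3221 became 605 and 412 without scaling and 1119 and 1985 at an adjusted p under 0.01. The 2322 became 4144 with array weights and 1424 without the 2 libraries together. In B73, 5774 and 5416 became 2152 and 1523 without scaling. Of the named genes, Zm00001eb376650 turned in its difference without scaling, to 0.088, and lost that call without the 2 libraries (limma adjusted p 0.097); the zmcryq responses of the 8 kept their call except Zm00001eb028500 without scaling. The causes were not tested.

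A fit with the replicate block gave 6041 rises and 5924 falls in zmcryq. Deviations of same-numbered blue and dark libraries had correlations of 0.004, -0.2 and -0.03 in zmcryq and 0.265, -0.047 and 0.245 in B73. So few values, from deviations around means of 3 libraries, cannot decide whether the numbers pair libraries. Depth is unknown, and the 2 decimals of the values limit genes near 0.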

Other observations

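Among the tested genes, 172 were listed at 0 in all 6 zmcryq libraries. Of these, 95 were at 1 FPKM or more in all 3 B73 blue libraries and 103 in all 3 B73 dark libraries. The filter admitted these 172 genes only at 1 FPKM or more in at least 3 B73 libraries. High levels in B73 were thus a condition of entry and are no finding of their own. Tested genes listed at 0 in all 6 B73 libraries were not counted for comparison. The filter asks for a third-highest value of 1 FPKM. Within 0.05 FPKM of it, 176 genes lay inside and were tested and 131 lay just outside. Their median levels were alike in zmcryq, 0.795 FPKM in blue and 0.375 FPKM in the dark for the tested ones and 0.74 FPKM in blue and 0.397 FPKM in the dark for the others.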
